A study of Homo sapiens with 6 samples.

Results

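RNA-Seq libraries of the human glioblastoma line U87, labelled as WHO stage IV, were examined for 10 genes that mark glial, neural or mesenchymal identity. The genes were taken from the deposited table by their gene name. All 10 were found, each in 1 row, among 60671 genes. They are NR2F1, NR2F2, SOX2, SOX9, OLIG2, VIM, NES, GFAP, CD44 and S100B. The treated cells received 100 μM rutaecarpine, an alkaloid that the sample labels call rutaecarpin, for 48 h (n = 3). The control cells received DMSO, the solvent, at 0.1% for 48 h (n = 3). Both groups were dosed in serum-free medium after culture in serum, and the labels name no gene modification in either. The line is an established one, so all 6 libraries share 1 source of cells. The labels do not say whether the 3 samples of a group came from separate cultures, so the p values measure only the spread between these samples.

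The values are TPM, a unit corrected for gene length and for library size, so levels can be set side by side between genes. The sequencing depth cannot be read from TPM and is unknown, which leaves counting error out of reach. The deposited genes summed to between 990889 and 995734 TPM per library, and control replicate 3 stood apart from the other control libraries. Across genes, Pearson's r on the log2(TPM + 1) scale was 0.986 for control replicates 1 and 2, whereas replicate 3 reached 0.965 with each of these. For the median tested gene, control replicate 3 minus the mean of the other control libraries was -0.24 on that scale. As a check of the exposure, CYP1B1, a target gene of the aryl hydrocarbon receptor (AhR), was at 84.7, 82.4 and 42.8 TPM in the control libraries and at 411, 335 and 423 TPM in the rutaecarpine libraries.

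The genes belong to several families. NR2F1 and NR2F2 encode the COUP-TF orphan nuclear receptors, transcription factors of the developing nervous system and of mesenchyme. SOX2, SOX9 and OLIG2 encode transcription factors of neural stem cells, of glial progenitors and of the oligodendrocyte lineage. VIM, NES and GFAP encode intermediate filament proteins, of which vimentin is typical of mesenchymal cells, nestin of neural progenitors and glial fibrillary acidic protein of mature astrocytes. CD44 encodes the hyaluronan receptor, a marker of the mesenchymal state of glioblastoma, and S100B encodes a calcium-binding protein of astrocytes. In glioblastoma, several of these genes are used among the markers of proneural, astrocyte-like and mesenchymal cell states. In bulk RNA, fewer cells that express a gene and less RNA of it per cell cannot be told apart.

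The promoter sequences of the 3 genes that fell after rutaecarpine are shown because the study asks which genes may respond to AhR, which binds the dioxin response element (DRE). The letters searched were CACGCNA and TNGCGTG, the same element on the opposite strands. RefSeq promoter windows on GRCh38.p14 were found for 6 of the 10 genes, in 8 windows. No window was taken for SOX9, OLIG2, GFAP or S100B. The 250 bases before the annotated start are printed 5′ to 3′ on the strand of the gene, with a DRE match in capitals.
NR2F1: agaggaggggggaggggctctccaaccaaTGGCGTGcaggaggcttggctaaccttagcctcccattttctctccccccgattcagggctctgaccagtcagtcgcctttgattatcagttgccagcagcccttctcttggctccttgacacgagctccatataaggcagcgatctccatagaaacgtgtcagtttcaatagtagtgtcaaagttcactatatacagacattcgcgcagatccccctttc
VIM: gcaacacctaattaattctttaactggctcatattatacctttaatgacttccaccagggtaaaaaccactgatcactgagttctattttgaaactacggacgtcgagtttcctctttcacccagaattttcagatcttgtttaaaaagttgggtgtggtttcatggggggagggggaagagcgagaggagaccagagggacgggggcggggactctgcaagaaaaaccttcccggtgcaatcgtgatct
NES: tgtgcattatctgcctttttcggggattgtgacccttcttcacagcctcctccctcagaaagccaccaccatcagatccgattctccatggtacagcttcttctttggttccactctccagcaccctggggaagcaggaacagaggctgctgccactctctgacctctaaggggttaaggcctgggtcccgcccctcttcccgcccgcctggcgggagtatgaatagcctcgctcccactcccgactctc

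RefSeq gives NR2F1 a pair of windows, and the one printed is the more upstream, which lies at chr5:93582972-93583221 on the plus strand. The VIM window lies at chr10:17227991-17228240 on the plus strand. The NES window lies at chr1:156677408-156677657 on the minus strand. In the GENCODE release 29 annotation on GRCh38, all 3 printed windows lie outside the span of their own gene. The printed NR2F1 window is within the span of the antisense gene NR2F1-AS1 and the VIM window within that of VIM-AS1. The printed NR2F1 window held 1 DRE match, which begins 221 bases before the start. The study searched a much longer stretch, upstream of the coding sequence, and lists 2 putative elements for NR2F1. The counts given here hold for the 250 bases only. The other NR2F1 window, at chr5:93586849-93587098 inside the span of the gene, held 0, as did the windows of the other 5 genes. Of all 35116 promoter windows, searched over the same 250 bases, 4.52% held a match. The shorter letters GCGTG, which TNGCGTG contains, or CACGC on the opposite strand, stood in 2 of the 8 windows and in 32.2% of all windows. The match is a description of the letters and does not show a binding site.

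In solvent-treated cells, VIM and CD44, the mesenchymal markers among the 10 genes, had the highest levels. VIM, on chromosome 10 from 17228259 to 17237593, was at 7551, 7968 and 6974 TPM in the 3 control libraries and ranked 12 of 60671 genes by its mean. It made up 0.755% ± 0.052 (SD, n = 3) of all TPM. CD44, on chromosome 11 from 35138870 to 35232402, was at 744, 805 and 415 TPM, the lowest value in control replicate 3. NR2F1 followed, at 188 ± 29.9 TPM (SD, n = 3), and ranked 698.

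NES, NR2F2 and SOX9 were expressed at a lower level. NES, on chromosome 1 from 156668763 to 156677397 on the minus strand, was at 20.4, 21.0 and 17.25 TPM. NR2F2, on chromosome 15 from 96325938 to 96340263, was at 21.15, 21.8 and 15.1 TPM, and the ranges of NES and NR2F2 overlapped. SOX9, on chromosome 17 from 72121020 to 72126420, was at 13.5, 13.4 and 7.97 TPM, below both.

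GFAP and OLIG2 were low, and S100B and SOX2 were near 0. GFAP, on chromosome 17 from 44903161 to 44916937 on the minus strand, was at 3.57, 3.48 and 4.9 TPM. OLIG2, on chromosome 21 from 33025845 to 33029196, was at 1.55, 1.48 and 1.73 TPM. S100B, on chromosome 21 from 46598962 to 46605208 on the minus strand, was listed at 0, 0.25 and 0.07 TPM, and SOX2, on chromosome 3 from 181711924 to 181714436, at 0, 0 and 0.04 TPM. Each of the 2 was listed at 0 in 3 of the 6 libraries and was never at 1 TPM, so neither entered the test. In the control group, NES with NR2F2 and S100B with SOX2 were the neighbours in the order whose libraries overlapped, and the other neighbours were apart in all 3 libraries. Among the 10 genes under solvent, the mesenchymal markers VIM and CD44 were thus the highest, and the astrocyte gene S100B and the stem cell gene SOX2 were near 0. NR2F1, NES, NR2F2, SOX9, GFAP and OLIG2 lay between them.

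**Figure D1:**
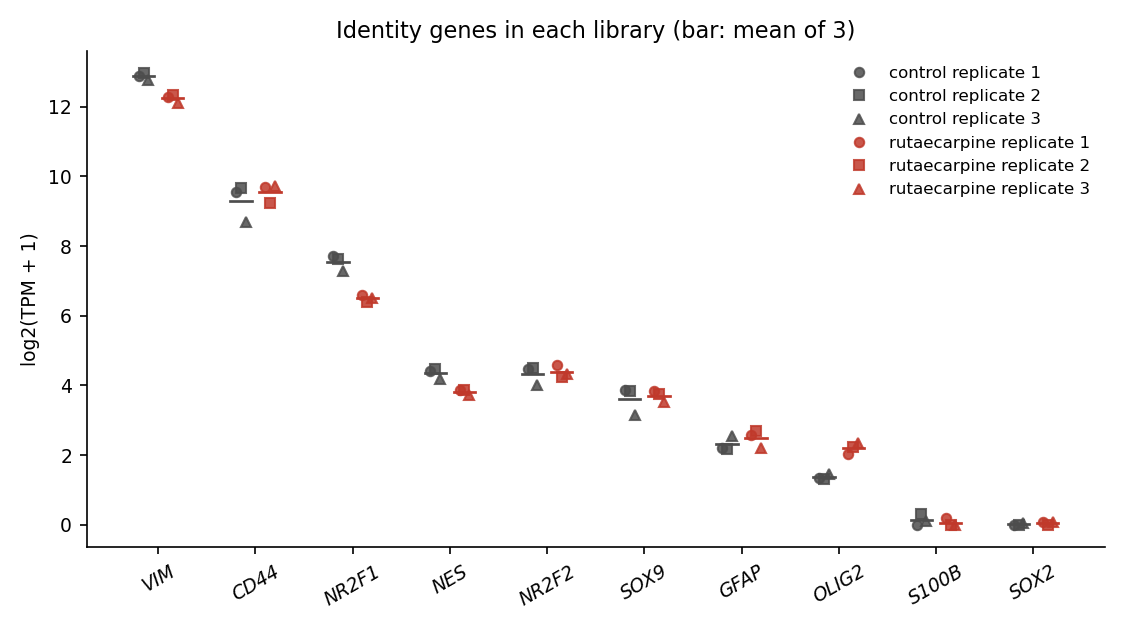
Levels of the 10 genes in each library, as log2(TPM + 1), in the order of the control means. Grey symbols are the 3 control libraries, red symbols the 3 rutaecarpine libraries, and bars the group means. The levels run from VIM at the left to S100B and SOX2 near 0 at the right, and the groups are apart for VIM, NR2F1, NES and OLIG2.

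In lists of lineage markers that leave out the 10 genes, the mesenchymal list had the highest median, while single genes of other lists were abundant too. Of 28 mesenchymal genes, 25 had a control mean of at least 1 TPM, and their median was 56.7 TPM. The most abundant were LGALS1, which encodes galectin-1, at 9180 ± 800.3 TPM (SD, n = 3) and FN1, which encodes fibronectin, at 6025 ± 895 TPM. Of 17 astrocyte genes, 9 reached 1 TPM, with CLU (clusterin) at 1380 ± 111 TPM and GJA1 (connexin 43) at 229 ± 66.8 TPM in the control group. The water channel gene AQP4, an astrocyte marker, was listed at 0 in all 6 libraries.

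Of 15 neuronal genes 8 reached 1 TPM, led by ENO2 (neuron-specific enolase) at 333 ± 49.6 TPM and TUBB3 (beta-III tubulin) at 176 ± 11.9 TPM. Of 16 neural stem and progenitor genes 7 reached 1 TPM, led by NOTCH2 at 69.4 ± 35.9 TPM and BMI1 at 17.7 ± 9.45 TPM. Of 16 oligodendrocyte lineage genes, 3 did so, CNP (45.7 ± 1.51 TPM), CSPG4 (26.9 ± 4.23 TPM) and PDGFRA. OLIG1, the neighbour and paralog of OLIG2, was listed at 0 in all 6 libraries. Among protein-coding genes as a whole, 60.8% had a control mean of at least 1 TPM.

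Markers of macrophages, endothelium, epithelium and melanocytes were also looked at. Of these 20 genes 7 reached 1 TPM. The summed level of the list was 475 to 529 TPM in the control libraries and 338 to 375 TPM in the rutaecarpine libraries, and most of it came from CD68, a lysosomal protein, at 473 ± 33 TPM. The leukocyte gene PTPRC was at no more than 0.03 TPM in any library and AIF1 was listed at 0 in all 6.

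**Figure D2:**
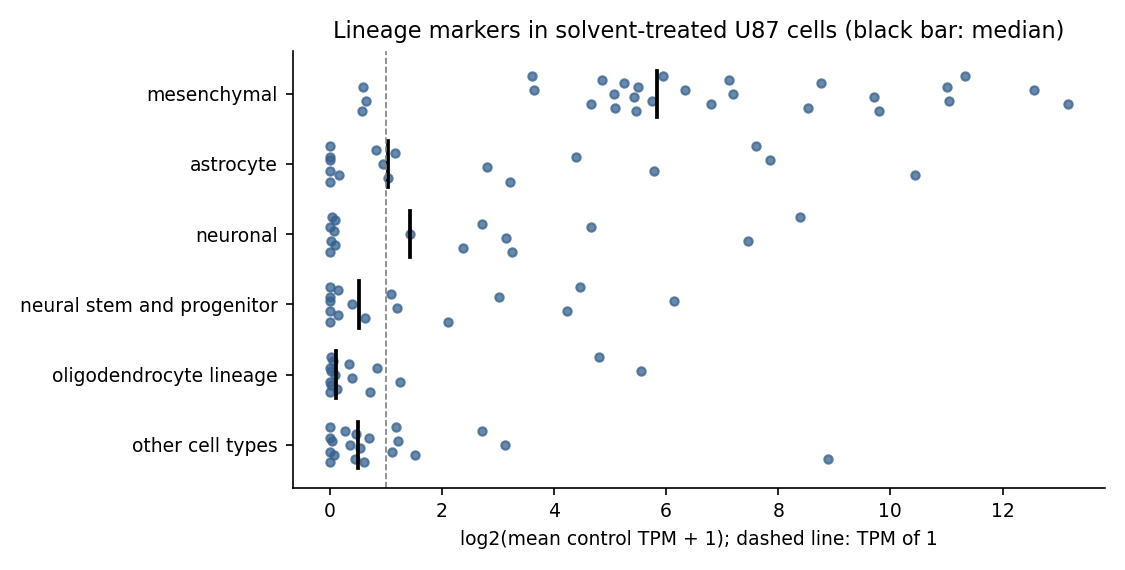
Control levels of the lineage marker lists. Each point is 1 gene, as log2 of its mean TPM over the 3 control libraries plus 1, and the black bar is the median of the list. The mesenchymal list has a median of 56.7 TPM, whereas the medians of the other 5 lists lie below 2 TPM.

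To see whether identity genes moved with rutaecarpine, log2(TPM + 1) was compared with limma over the 14377 genes with at least 1 TPM in at least 3 libraries. Of the 10 identity genes 8 were tested and 4 reached an adjusted p of 0.05 or less. NR2F1, VIM and NES fell and OLIG2 rose. Among all tested genes, 4.68% fell and 4.6% rose by this cutoff. With the second cutoff of the study, an absolute log2 fold change above 1, 1 gene was left, NR2F1, against 1.5% of all tested genes that fell and 2.01% that rose. The libraries of the 2 groups did not overlap for these 4 genes, as for 33.3% of all tested genes. The median log2 fold change was 0.07 over the 8 genes and 0.08 over all tested genes.

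**Figure D3:**
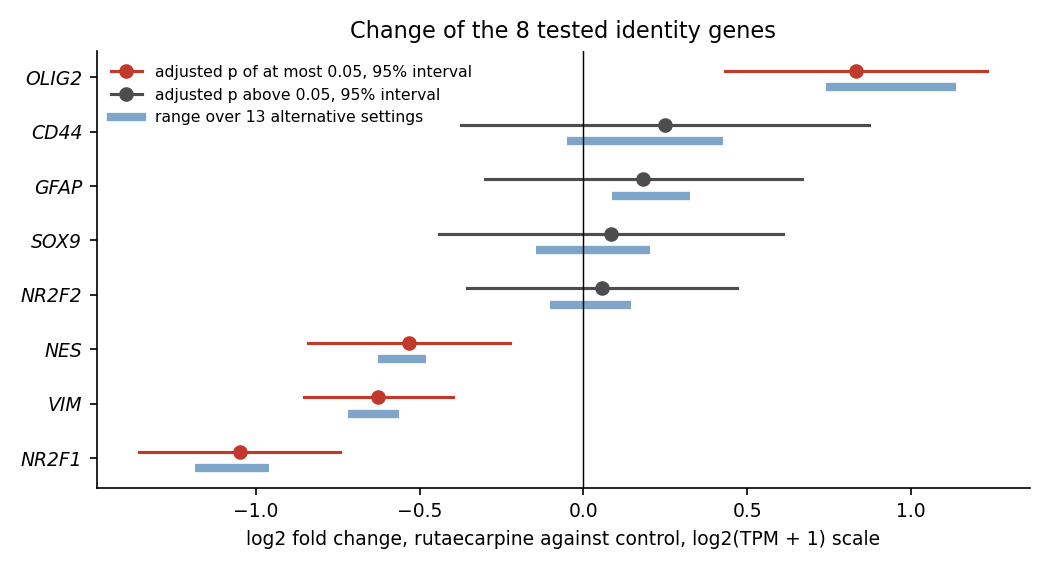
Change of the 8 tested genes on the log2(TPM + 1) scale, rutaecarpine against control. Points and thin lines are the estimate and its 95% interval from limma, red where the adjusted p is at most 0.05, and thick blue bars span the estimates of 13 alternative settings. The intervals of NR2F1, VIM and NES lie below 0 and that of OLIG2 above 0, while those of NR2F2, SOX9, GFAP and CD44 span 0.

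The COUP-TF genes parted. NR2F1, on chromosome 5 from 93583224 to 93594615, was at 211, 199 and 154 TPM in the control libraries and at 95.0, 83.7 and 89.7 TPM in the rutaecarpine libraries. Every rutaecarpine library was below every control library. The log2 fold change was -1.05 (standard error 0.13, 95% interval -1.36 to -0.74), with an adjusted p of 0.00420 from limma. The study had picked NR2F1 for its change in these same libraries, so its fall here is not independent evidence. The study also measured NR2F1 by qPCR and reports a change in the same direction. In limma, NR2F1 stayed under an adjusted p of 0.05 in all 13 alternative settings, and without control replicate 1 its log2 fold change was -0.96.

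NR2F2 was at 22.9, 17.97 and 19.2 TPM after rutaecarpine, within or near the span of its control libraries. Its log2 fold change of 0.06 had a 95% interval of -0.36 to 0.47 and an adjusted p of 0.865 from limma, so a change of the size of that of NR2F1 lies outside this interval. The sign turned with the setting, for example to -0.10 without control replicate 3. The TPM ratio of NR2F1 to NR2F2 was 9.96, 9.11 and 10.2 in the control libraries and 4.15, 4.66 and 4.66 in the rutaecarpine libraries. The log2 ratio of the pair fell by 1.11, and the exact permutation test gave a two-sided p of 0.1, the smallest that 3 against 3 libraries allow (0.2 after Benjamini-Hochberg adjustment over 4 ratios). The sum of both genes fell from 207 ± 33.4 to 109.5 ± 8.11 TPM (SD, n = 3), and the share of NR2F1 in it from 90.7% ± 0.50 to 81.8% ± 1.00.

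**Figure D4:**
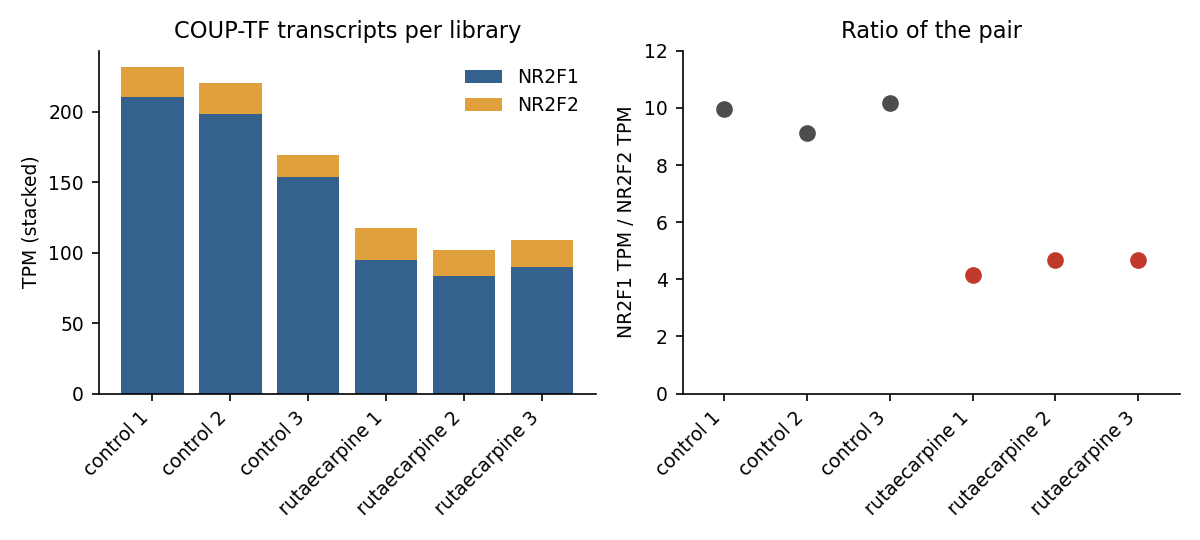
The COUP-TF pair in each library. The left panel stacks the TPM of NR2F1 and NR2F2, and the right panel gives their ratio, grey for control and red for rutaecarpine. The NR2F1 bars shrink from a mean of 188 to 89.5 TPM while those of NR2F2 stay near 20 TPM, and the ratio drops from between 9.11 and 10.2 to between 4.15 and 4.66.

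The antisense gene NR2F1-AS1, which overlaps the 5′ end of NR2F1 on the opposite strand, was at 20.2 ± 3.69 TPM under solvent and 18.6 ± 1.88 TPM after rutaecarpine (SD, n = 3). Its log2 fold change was -0.10 with an adjusted p of 0.723 from limma. Whether the libraries kept the strand is not given in the sources used here, so reads of the overlap may have been divided between the genes. NR2F2-AS1 had a log2 fold change of 0.04, and SOX2-OT and SOX9-AS1 were too low to be tested.

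Of 14 relatives and partners of the COUP-TF proteins, 8 were tested, 2 rose and none fell at an adjusted p of at most 0.05. By this cutoff 4.6% of all tested genes rose and 4.68% fell. The retinoic acid receptor gene RARG was at 39.8, 40.8 and 36.6 TPM in the control libraries and at 72.2, 64.8 and 72.25 TPM after rutaecarpine. This is a log2 fold change of 0.82 with an adjusted p of 0.00316 from limma. BCL11B, which encodes a zinc finger protein that binds COUP-TF, rose from 1.18 ± 0.31 to 2.72 ± 0.17 TPM. RARA, the other abundant receptor of this list, had 40.0 ± 3.46 and 29.6 ± 5.19 TPM, with an adjusted p of 0.126 from limma. NR2E1 was listed at 0 in all 6 libraries.

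The tested genes whose profile over the 6 libraries lay closest to that of NR2F1 were ZWINT, CEP55 and FBXO5. The measure was the root mean square difference of log2(TPM + 1) after centring each gene, over 8385 genes with a mean of at least 10 TPM, and it was 0.051, 0.056 and 0.058. ZWINT was at 114, 116 and 90.0 TPM in the control libraries and at 55.7, 49.9 and 54.0 TPM after rutaecarpine. The closest to NR2F2 were FAM171A1, NOM1 and CAPRIN1, at 0.039, 0.040 and 0.048. These profiles include the low values of control replicate 3 and the difference between the groups, so genes with a similar fold change come close. ZWINT, CEP55 and FBXO5 had log2 fold changes of -0.98, -1.03 and -1.15. A link between the genes was not tested.

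Among the other transcription factors, OLIG2 rose and SOX9 did not pass the test. OLIG2, which is needed for the oligodendrocyte lineage and marks many gliomas, was at 3.07, 3.7 and 4.11 TPM after rutaecarpine. All 3 values lay above the control libraries, whose highest was 1.73 TPM. The log2 fold change was 0.83 with a standard error of 0.17 (limma, adjusted p = 0.0262), and it was 1.14 with a pseudocount of 0.1, which shrinks such a low gene less. The plain ratio of the means was 2.29. OLIG2 lost the call in 8 of 13 alternative settings, with centred libraries (adjusted p = 0.0657 from limma), with no filter on low TPM (0.103), with the replicate number as a block (0.124) and in each fit that left out 1 library other than control replicate 3, where the adjusted p lay between 0.0684 and 0.125.

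SOX9 was at 13.4, 12.5 and 10.4 TPM after rutaecarpine, inside the span of the control libraries. Its log2 fold change of 0.08 had a 95% interval of -0.44 to 0.61 (adjusted p = 0.844 from limma) and turned to -0.14 without control replicate 3. SOX2 was listed at 0.05, 0 and 0.06 TPM after rutaecarpine, near 0 in both groups, so a ratio to SOX9 has no reading and the exact permutation test of its log2 ratio gave p = 1. Of 17 other SOX genes 5 were tested, and 0 passed in limma after adjustment against 1 at an unadjusted p under 0.05. The most abundant were SOX15, at 11.2 ± 2.96 TPM without and 6.67 ± 0.34 TPM after rutaecarpine (adjusted p = 0.102 from limma), and SOX12, with 9.53 ± 0.11 and 9.37 ± 1.3 TPM.

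Of the intermediate filament genes, VIM and NES fell and GFAP did not pass the test. VIM was at 4977, 5164 and 4430 TPM after rutaecarpine, all below the lowest control library at 6974 TPM. The log2 fold change was -0.63 (standard error 0.10, 95% interval -0.85 to -0.40), with an adjusted p of 0.00894 from limma. Its share of all TPM fell from 0.755% ± 0.052 to 0.489% ± 0.038 (SD, n = 3). The reference gene ACTB, which encodes the cytoskeletal beta-actin, was at 4207 ± 239 TPM in the control libraries and 2924 ± 130 TPM after rutaecarpine, a log2 fold change of -0.52, and GAPDH had one of -0.15 (limma, adjusted p = 0.360). VIM lost the call with centred libraries (log2 fold change -0.72, adjusted p = 0.0768 from limma), with no filter on low TPM (0.0594) and without rutaecarpine replicate 3 (log2 fold change -0.56, 0.0526).

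NES was at 13.6, 13.6 and 12.3 TPM after rutaecarpine, below all control libraries. The log2 fold change was -0.53 (standard error 0.13, 95% interval -0.84 to -0.23), and the adjusted p of 0.0491 from limma was just under the cutoff. The call was lost in 8 of 13 alternative settings, among them each fit that left out 1 library other than control replicate 3, where the adjusted p lay between 0.131 and 0.205. VIM exceeded NES by 371, 379 and 404 times in the control libraries and by 366, 381 and 360 times after rutaecarpine, so these spans overlapped. The log2 ratio of NES to VIM differed by 0.09 between the groups (exact permutation test, two-sided p = 0.2).

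GFAP was at 4.98, 5.41 and 3.61 TPM after rutaecarpine and overlapped the control libraries. Its log2 fold change was 0.18, with a 95% interval of -0.30 to 0.67 and an adjusted p of 0.619 from limma. The log2 ratio of GFAP to VIM rose by 0.81 in the mean, with no overlap of the libraries, and the exact permutation p was 0.1, the smallest possible. VIM exceeded GFAP by 1423 to 2290 times in the control libraries and by 955 to 1227 times after rutaecarpine.

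VIM-AS1, which overlaps VIM on the opposite strand, was at 6.93, 7.94 and 5.22 TPM in the control libraries and at 4.03, 3.83 and 2.34 TPM after rutaecarpine. The groups did not overlap, but the adjusted p from limma was 0.0795. Of 15 other intermediate filament and lamin genes 7 were tested and 2 fell at an adjusted p of at most 0.05, as did 4.68% of all tested genes. Both were B-type lamins of the nuclear envelope. LMNB1 was at 31.9, 31.1 and 21.8 TPM in the control libraries and at 10.2, 7.83 and 10.1 TPM after rutaecarpine, a log2 fold change of -1.48 (adjusted p = 0.00467 from limma). LMNB2 fell from 101 ± 7.95 to 61.85 ± 6.66 TPM. The A-type lamin gene LMNA, the most abundant of the list, had 473 ± 12.6 and 403 ± 5.76 TPM with an adjusted p of 0.0772 from limma.

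CD44 was at 830.5, 600.2 and 837 TPM after rutaecarpine, against 744, 805 and 415 TPM in the control libraries, and the groups overlapped. Its log2 fold change of 0.25 had a 95% interval of -0.37 to 0.87 and an adjusted p of 0.598 from limma. The level in control replicate 3 was 0.535 times the mean of the other control libraries, and without it the log2 fold change was -0.05. TPM per gene do not separate the splice forms of CD44.

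Genes around CD44 were looked at as a list of 16 hyaluronan enzymes, receptors and ERM proteins, which link the receptor to actin. Of these 13 were tested, 2 rose and none fell at an adjusted p of at most 0.05, against 4.6% and 4.68% of all tested genes. HAS2, a hyaluronan synthase, was at 4.47, 5.19 and 2.25 TPM in the control libraries and at 14.3, 14.5 and 12.55 TPM after rutaecarpine. This is a log2 fold change of 1.62 with an adjusted p of 0.00990 from limma. CEMIP2, a hyaluronidase of the cell surface, rose from 3.22 ± 0.57 to 6.83 ± 1.09 TPM. HAS1, the most abundant synthase here, had 89.6 ± 11 TPM and, after rutaecarpine, 66.9 ± 4.10 TPM, with an adjusted p of 0.0693 from limma. MSN (moesin) had 219 ± 40.8 and 187 ± 22.4 TPM. The study had listed HAS2 and CEMIP2 as changed in these libraries, so their rises are not independent evidence.

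S100B was at 0.14, 0 and 0 TPM after rutaecarpine and could not be tested. Other S100 genes were among the most abundant of the cells. Of 19 genes of this list, which includes the receptor gene AGER, 11 were tested and 2 fell at an adjusted p of at most 0.05. The share over all tested genes was 4.68%. S100A10, which encodes the annexin A2 partner p11, was at 2420, 2330 and 2769 TPM in the control libraries and at 1205, 1263 and 1098 TPM after rutaecarpine. The log2 fold change was -1.07 with an adjusted p of 0.00122 from limma. S100A3 was at 44.8, 39.9 and 53.1 TPM and then at 15.5, 20.2 and 18.15 TPM (log2 fold change -1.31, adjusted p = 0.00290 from limma). S100A6, the most abundant, did not pass the test, at 9726 ± 1538 and 7136 ± 599 TPM, with an adjusted p of 0.0916 from limma.

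The mesenchymal list moved in both directions. Of 26 tested genes 5 rose and 4 fell, against 4.6% and 4.68% of all tested genes, and 17 did not pass the test. The median log2 fold change was 0.10, and 0.08 over all tested genes. SNAI2, a transcription factor of the epithelial-mesenchymal transition, was at 56.8, 58.5 and 43.1 TPM in the control libraries and at 96.7, 86.4 and 93.2 TPM after rutaecarpine. The other 4 that rose were the protease inhibitor gene TIMP1, from 2587 ± 322 to 4926 ± 565 TPM, and the transcription factor genes CEBPB, BHLHE40 and TWIST2. TWIST2 stayed low, with 0.51 ± 0.20 and 1.74 ± 0.32 TPM. It reached 1 TPM in the rutaecarpine libraries only, so it entered the test through the group where it was higher.

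FN1 was at 6721, 6338 and 5016 TPM in the control libraries and at 3451, 2816 and 3454 TPM after rutaecarpine, a log2 fold change of -0.89 (adjusted p = 0.00972 from limma). The others that fell were ANXA1 and ANXA2, of the annexins, and ENG, a coreceptor of TGF-beta. ANXA2 fell from 2105 ± 40.2 to 1610 ± 73.7 TPM. LGALS1 had 9180 ± 800.3 and 7484 ± 479 TPM with an adjusted p of 0.126 from limma.

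The genes of the neural and glial lists that passed the test were lower after rutaecarpine. Of 8 tested astrocyte genes 2 fell and none rose, against 4.68% and 4.6% of all tested genes. CLU was at 1335, 1299 and 1506 TPM in the control libraries and at 836, 820.1 and 827 TPM after rutaecarpine (log2 fold change -0.73, adjusted p = 0.00242 from limma). NDRG2 fell from 1.24 ± 0.17 to 0.33 ± 0.09 TPM. This low gene reached 1 TPM in the control libraries only, so it entered the test through the group where it was higher. GJA1 had 264 ± 12 TPM after rutaecarpine, with a log2 fold change of 0.25 and an adjusted p of 0.523 from limma.

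Of 8 tested neuronal genes 2 fell, against 4.68% of all tested genes. TUBB3 was at 166, 173 and 189 TPM in the control libraries and at 95.55, 92.6 and 80.0 TPM after rutaecarpine (log2 fold change -0.97, adjusted p = 0.00186 from limma), and GAP43, a growth cone protein, fell from 7.83 ± 0.40 to 3.34 ± 0.79 TPM. ENO2 had 310 ± 22.9 TPM after rutaecarpine with a log2 fold change of -0.09. Of 3 tested oligodendrocyte lineage genes, CSPG4, the NG2 proteoglycan of oligodendrocyte precursors and pericytes, fell from 26.9 ± 4.23 to 15.6 ± 1.23 TPM, while CNP had 41.7 ± 2.79 TPM after rutaecarpine.

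Of the 7 tested neural stem and progenitor genes, 0 passed in limma after adjustment and 1 at an unadjusted p under 0.05. NOTCH2 was at 90.8, 89.5 and 28.0 TPM in the control libraries and at 97.75, 61.6 and 97.7 TPM after rutaecarpine. BMI1 was likewise low in control replicate 3, at 7.01 TPM against 24.95 and 21.1 TPM, and had 22.3 ± 2.11 TPM after rutaecarpine. In the list of other cell types 1 of 7 tested genes fell, against 4.68% of all tested genes. It was CD68, which fell to 342 ± 20.7 TPM, and CSF1R had 7.75 ± 0.54 and 6.65 ± 0.68 TPM. The part of other cell types in these results was not tested.

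**Figure D5:**
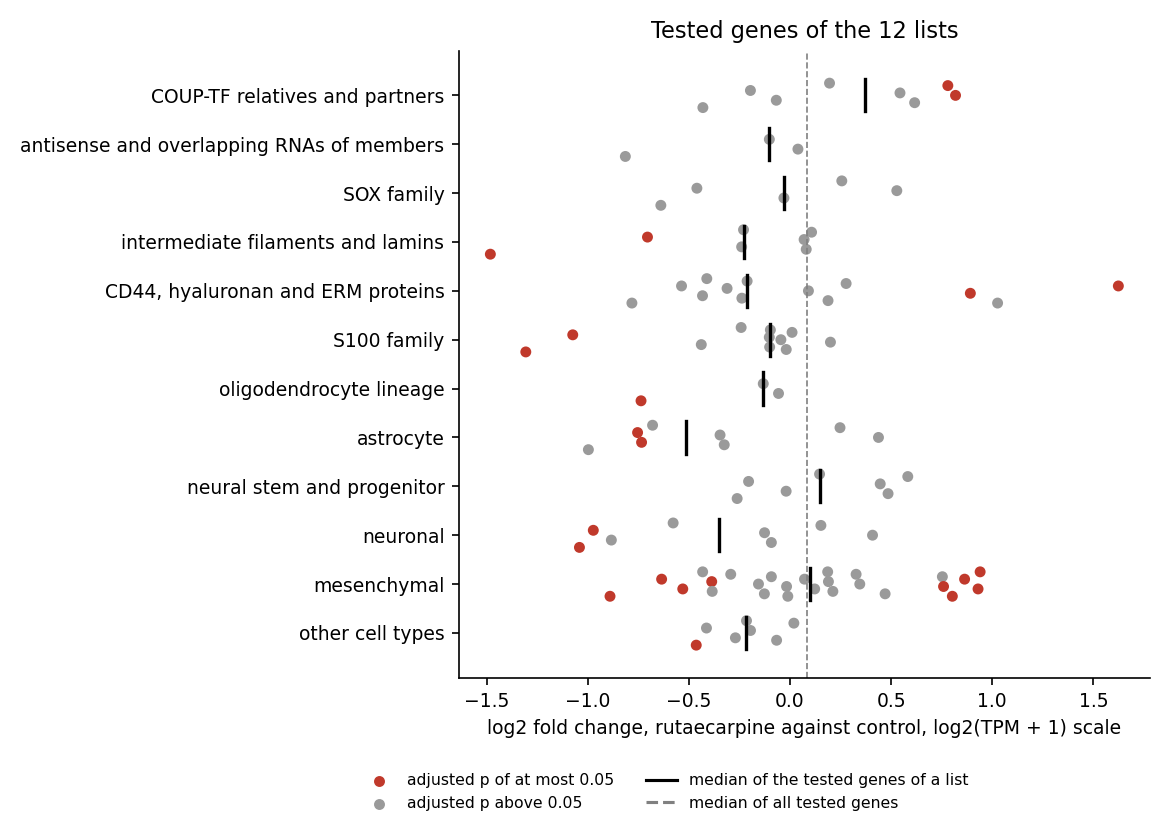
Log2 fold changes, rutaecarpine against control on the log2(TPM + 1) scale, of the tested genes of the 12 lists. Each point is 1 gene, red where the adjusted p from limma is at most 0.05, black bars are list medians and the dashed line is the median of all tested genes at 0.08. Red points lie on both sides in the mesenchymal list, at the right in the COUP-TF and hyaluronan lists and at the left in the lamin, S100, astrocyte, neuronal, oligodendrocyte and other cell type lists.

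Over the 12 lists, which hold 196 genes of which 2 stand in more than 1 list, 106 genes were tested. Of these 9 rose and 14 fell at an adjusted p of at most 0.05, against 4.6% and 4.68% of all tested genes, and 5 of them passed the second cutoff too. The 5 were HAS2, which rose, and LMNB1, S100A3, S100A10 and GAP43, which fell. Past both cutoffs, 2.01% of all tested genes rose and 1.5% fell. The list medians ran from -0.51 for the astrocyte list to 0.37 for the COUP-TF relatives. In the rutaecarpine group, the order of the 10 identity genes was the same as in the control group but for NR2F2, which stood above NES. There, NES overlapped SOX9, GFAP overlapped OLIG2 and S100B overlapped SOX2.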

How the data were processed

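The authors sequenced RNA of U87 cells on an Illumina instrument, and RSEM gave the abundances. The values they deposited are TPM, 1 column per library, and the submitters' processing notes name the build GRCh38.p13. The aligner and the annotation release are not given in the sources used here. All 6 columns were matched to samples by the labels, and 0 were left over. Genes without a name in the table were named through their Ensembl identifiers, and positions were read from the GENCODE release 29 annotation of GRCh38.

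TPM were transformed to log2(TPM + 1). Genes had to reach 1 TPM in 3 or more libraries, and the 14377 left were compared between the groups with limma 3.58.1 in R 4.3.3, with a mean-variance trend and without added normalization. Methods for read counts, which the study names, were not used because TPM are not counts. P values were two-sided, with Benjamini-Hochberg adjustment across the 14377 genes. Fold changes on this scale understate the change of weakly expressed genes. Ratios of 2 genes were compared with exact permutation tests in scipy 1.17.1. For a single gene, 3 libraries against 3 cannot give a permutation p under 0.1.

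The identity genes, the 12 gene lists and the tests were chosen with earlier results of these data known. All 10 identity genes are named. From each list the genes past both cutoffs and the 2 most abundant are named, with the 3 closest profiles for NR2F1 and NR2F2. Other genes named were chosen after their values were seen. The test was tried on 5 simulated sets of 14377 genes with changes of 4-fold, of which 98.5% were recovered with 2.8 false calls on average. The simulated noise left out control replicate 3, only better expressed genes were changed, and calls had to pass both cutoffs. The simulation therefore does not show how well smaller changes, weakly expressed genes or calls on the adjusted p alone are found. The alternatives are given in the closing section.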

Additional observations from a re-analysis of the deposited data

How the results depend on the processing

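NR2F1, VIM, NES and OLIG2 kept their direction in all 13 alternatives. The number of identity genes at an adjusted p of at most 0.05 was 4 in the reported fit, 2 with the libraries centred on their medians and 1 with no filter on low TPM. Leaving out each library in turn gave between 1 and 4 identity genes, and 0 to 1 with an absolute log2 fold change above 1. A pseudocount of 0.1 raised that last number to 2, by adding OLIG2. With library weights (limma's arrayWeights), 50 list genes and 3962 of all tested genes passed, against 23 and 1335. Leaving out each library gave 11 to 40 list genes and 539 to 2666 of all tested genes, the highest without control replicate 3. The cause was not tested.

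The sign turned for 3 genes that had not passed the test. With centred libraries, the log2 fold change was -0.0087 for SOX9 and -0.036 for NR2F2. With library weights, it was -0.11 for SOX9 and -0.031 for NR2F2. Without control replicate 3, it was -0.050 for CD44, -0.14 for SOX9 and -0.10 for NR2F2, and without rutaecarpine replicate 1 it was -0.039 for NR2F2. Over the fits that left out 1 library, it ran from -0.050 to 0.43 for CD44, from -0.14 to 0.20 for SOX9 and from -0.10 to 0.15 for NR2F2. With centring, 251 of all tested genes rose and 295 fell past both cutoffs, against 289 and 216 as reported. The difference in the log2 ratio of SOX2 to SOX9, with SOX2 near 0, turned from -0.052 to 0.17 with a pseudocount of 0.1, to 0.20 without control replicate 3 and to 0.011 without rutaecarpine replicate 1, and ran from -0.18 to 0.20 over the fits that left out 1 library. The other 3 log2 ratios kept their sign.

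The replicate numbers were not used to pair the libraries. Deviations from the group means correlated at 0.12, -0.27 and -0.22 between libraries with the same number, and 0 of 6 libraries correlated best with its own number. With the replicate block, NES (adjusted p = 0.174 from limma) and OLIG2 (0.124) lost the call, and 2 identity genes, 10 list genes and 428 of all tested genes passed on the adjusted p, and 318 passed both cutoffs, against 505.

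The depth of the libraries is unknown, so it cannot be said how many reads stand behind the low values of OLIG2, GFAP, S100B and SOX2.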
